A study of Mus musculus with 11 samples.

Results

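Tgm2, Hbegf, Trib1 and Drc1 are 4 genes that were among the largest rises over mock when naive mouse CD4 T cells were transduced with wild-type FoxP3. They were selected on that rise, and are described here over all 4 groups of arrays through every probe set that the platform annotation gives to exactly 1 gene symbol, that symbol being one of the 4. This gave 11 probe sets, 6 for Tgm2, 2 for Hbegf, 2 for Trib1 and 1 for Drc1, among 34945 probe sets of 18193 genes that were tested. Because WT over mock chose the genes, every difference that uses mock or WT arrays is given for them as a description without a test. The difference between the R397W and A384T means uses neither and was tested, with a spread estimated from all 11 arrays, WT and mock included.

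Naive T cells (CD4+ CD25- CD45RB(high)) were sorted from BALB/cA mice, with lymph nodes and spleen as the source. They were stimulated with 0.5 µg/ml of the CD3e antibody 145-2C11 and 10 ng/ml mouse IL-2 in the presence of feeder cells, syngeneic splenocytes freed of T cells that had received 20 Gy. Infection by centrifugation followed 24 h later, and cells positive for CD4 with high GFP were sorted on day 7. The 4 groups differed in the retrovirus: MIGR1 alone (mock, 3 arrays), WT FoxP3/MIGR1 (WT, 3 arrays), A384T FoxP3/MIGR1 (A384T, 3 arrays) and R397W FoxP3/MIGR1 (R397W, 2 arrays). All 4 groups therefore shared the activation, the IL-2, the irradiated feeder cells and the GFP sort. FoxP3 was supplied by a viral vector and not by its own locus, so these cells model forced expression in activated T cells. Nothing in the labels ties the arrays within a group to separate cultures or animals. The p-values below therefore reflect only how far these arrays spread, and that spread may be technical.

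FoxP3 is the forkhead transcription factor that defines regulatory T cells, and loss of its function causes the autoimmune disease IPEX. The substitutions A384T and R397W lie in its forkhead domain, which binds DNA, and both are known from patients. The 4 genes described here encode proteins of unlike function. Tgm2 is tissue transglutaminase, an enzyme that crosslinks proteins through glutamine and lysine residues, binds GTP and, at the cell surface, associates with integrins, fibronectin and syndecan-4; its gene is a known target of retinoic acid. Hbegf is a membrane-anchored ligand of the epidermal growth factor (EGF) family that is shed by ADAM proteases and binds EGFR and ERBB4. Trib1 is a pseudokinase that brings substrates such as C/EBP proteins to the ubiquitin ligase COP1, and it has been described as a partner of FoxP3 in regulatory T cells. Drc1 is a subunit of the nexin-dynein regulatory complex, which links neighbouring microtubule doublets in motile cilia. T cells have no motile cilium.

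Values are on a log2 scale on which the mock median was exactly 0 at every probe set. A value of 1 is thus a doubling over the mock median, and levels of different genes cannot be compared, nor can absence of a gene be read. Over all probe sets, the median residual standard deviation was 0.177 and the median standard error of a difference between groups of 3 arrays was 0.142, or 0.159 with R397W. The array medians lay between -0.016 and 0.0022. The single probe set of Foxp3 lay between -0.34 and 0.26 in mock and between -0.07 and 0.11 in WT. It lay between 0.10 and 0.33 in A384T and between -0.39 and -0.19 in R397W. All 3 groups overlapped mock, but both R397W arrays lay below every WT and A384T array. The part of the transcript that this probe set reads is not known here, so neither the labels nor the level of the transduced FoxP3 could be checked with it. Cell type identity could not be read from centred values either. Of 86 probe sets for 57 measured genes (of 63) that mark CD4 T cells or other cell types, 1 rose and 1 fell in WT over mock, where 3.21% of all probe sets were called at an adjusted p below 0.05. The riser was Col1a2, a collagen gene of fibroblasts, which was 2.33 higher, and the other was Zap70, a T cell receptor kinase, which fell by 0.43. With the array number as a block 2 marker probe sets rose and 4 fell there, when 8.66% of all probe sets were called. In A384T over mock, where 2.7% of all probe sets were called, 3 of the 86 fell, for Cd28 (-0.96), Adgre1 (-1.13) and the platelet integrin Itga2b (-0.57). In R397W over A384T, where 1.83% of all were called, 2 marker probe sets rose. They were the same probe set of the costimulatory receptor Cd28 (1.24) and that of Adgre1 (1.19), which encodes a macrophage surface antigen. The other Cd28 probe set was called in neither comparison. The 20 macrophage and dendritic cell probe sets had a median difference of 0.07 in R397W over A384T. The part of these markers in the results below was not tested. In such bulk samples fewer cells of a type and less RNA per cell cannot be told apart. Arrays with the same number in different groups deviated together, as given with the comparison of A384T and WT. Those numbered 1 had the highest 3′ minus 5′ difference at the Actb control probe sets of their group (0.33 in mock, 0.17 in WT, 0.20 in A384T and 0.48 in R397W). At the Gapdh control probe sets this difference lay between -0.14 and 0.11 on all arrays and was not highest on those numbered 1 (-0.09, -0.10, -0.03 and 0.007). Values without them are given below for the selected genes in R397W over A384T where a call or direction changed, and as counts over all probe sets. They are not given for the markers, lists and neighbours, nor for the selected genes in other comparisons.

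Of the 4 genes, Drc1 had an entry in the RefSeq promoter table (assembly GRCm38.p6). The stretch below is the plus strand of chr5:30281143-30281334, upstream of the earliest Drc1 start in the RefSeq gene table, and is shown because Drc1 rose to nearly the same height with both constructs that raised these genes. The capitals mark the single match to the AP-1 motif, TGAGTCA, which begins at position -211 from the transcript start at 30281393. AP-1 proteins are activation-induced transcription factors of T cells.
Drc1: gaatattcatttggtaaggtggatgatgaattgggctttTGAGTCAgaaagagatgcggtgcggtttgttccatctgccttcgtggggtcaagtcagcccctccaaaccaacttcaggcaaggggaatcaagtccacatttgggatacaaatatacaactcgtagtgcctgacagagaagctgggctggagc
The search covered 250 bases before the start on both strands for forkhead (TGTTTAC and TGTTTGC), RUNX (TGTGGT), NFAT (GGAAAA), AP-1 (TGANTCA), CRE (TGACGTCA), STAT (TTCNNNGAA), ETS (CCGGAAG), NF-kappaB, E-box (CACGTG) and X-box (GTTGCC) letters. AP-1 letters occurred in 6.75% of the 32851 promoters of the table. The X-box, the motif of the RFX factors that control cilium genes, matched once on the minus strand 11 bases before the start, outside the printed stretch, as it did somewhere in 10.4% of all promoters. The other letters had 0 matches in these 250 bases. These matches describe the sequence and were not tested for binding.

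All 4 genes were high on every WT and every A384T array and near the mock values on both R397W arrays. With WT the differences from mock of the 9 probe sets that rose by more than 2 ranged from 2.08 to 4.88, with A384T from 1.87 to 5.15 and with R397W from -0.35 to 0.53. For each gene, the probe set that varied most over the 11 arrays is plotted by array.

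**Figure D1:**
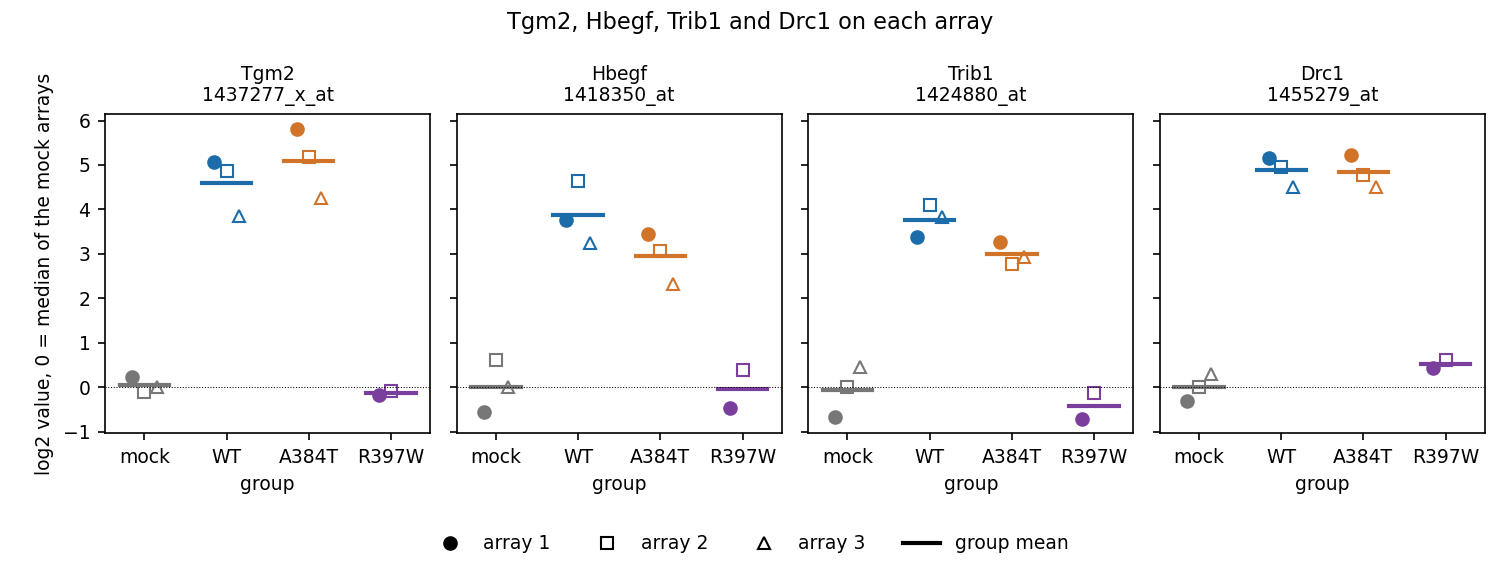
Log2 values (0 is the median of the mock arrays) of 1 probe set for each of Tgm2, Hbegf, Trib1 and Drc1 on 11 arrays, by group; marker shape gives the array number and the bar the group mean. All WT and A384T values lie above 2, whereas all mock and R397W values lie between -0.71 and 0.60.

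Tgm2 showed the widest differences between R397W and A384T. Probe set 1437277_x_at read 0.23, -0.11 and 0.00 on mock arrays 1, 2 and 3, and 5.07, 4.87 and 3.84 on the WT arrays. It read 5.82, 5.18 and 4.25 on the A384T arrays, and -0.17 and -0.08 on the R397W arrays. Array 3 was the lowest of its group with both WT and A384T, and R397W lay within or just below the mock range. The difference from mock was 4.56 ± 0.38 (standard error) in WT, a 23.5-fold rise, 5.04 ± 0.38 in A384T (33-fold) and -0.16 ± 0.43 in R397W, with a 95% confidence interval from -1.12 to 0.79. These 3 differences share the mock arrays. Against A384T, R397W was 36.9-fold lower (-5.21 ± 0.43, adjusted p = 0.000333; limma, Benjamini-Hochberg over all probe sets), and the arrays of the groups did not overlap.

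Of the other 5 Tgm2 probe sets, 4 were likewise high with WT and higher still with A384T, at different heights. Probe set 1417500_a_at read 0.00, 0.88 and -0.18 in mock, 5.0, 5.26 and 3.88 in WT, 6.17, 5.57 and 4.39 in A384T, and 0.01 and 0.88 in R397W. Its second arrays in mock and R397W were equally high, 0.88 each, so that the R397W values lay inside the mock range. It was 30.6-fold lower in R397W than in A384T (-4.94 ± 0.56, adjusted p = 0.00165). Probe set 1433428_x_at gave 4.56 in WT and 5.0 in A384T over mock, and R397W minus A384T was -4.90 (adjusted p = 0.00103). Probe set 1455900_x_at rose less, by 2.90 and 3.52, with R397W minus A384T at -3.19 (adjusted p = 0.00355). Probe set 1426004_a_at rose by 2.08 and 2.59, with R397W minus A384T at -2.39 (adjusted p = 0.0128). On 1455900_x_at both R397W arrays, at 0.40 and 0.20, stood just above the highest mock array at 0.14. Probe set 1438942_x_at stayed between -0.24 and 0.29 on all 11 arrays, and R397W minus A384T was -0.20 ± 0.13 (adjusted p = 0.666). In this array family the ending _x_at marks probes that can match other transcripts, and 4 of the 6 Tgm2 probe sets carry it. The 2 that end in _a_at, 1417500_a_at and 1426004_a_at, were both high with WT and A384T and low with R397W. The call of 1426004_a_at was lost without A384T array 2 (adjusted p = 0.0537), R397W array 1 (0.108) or R397W array 2 (0.102). In the fit of the A384T and R397W arrays alone, 1426004_a_at and 1455900_x_at were not called (adjusted p = 0.102 and 0.0632).

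Hbegf was highest with WT, intermediate with A384T and at mock level with R397W. Probe set 1418350_at read -0.56, 0.60 and 0.00 in mock and 3.75, 4.63 and 3.24 in WT. It read 3.45, 3.07 and 2.31 in A384T, and -0.46 and 0.38 in R397W. The WT and A384T ranges overlapped, since the highest A384T array lay above the lowest WT array, and the R397W arrays fell inside the mock range. The difference from mock was 3.86 ± 0.42 in WT (14.5-fold), 2.93 ± 0.42 in A384T (7.62-fold) and -0.05 ± 0.47 in R397W (95% confidence interval -1.11 to 1.00). R397W was 7.9-fold lower than A384T (-2.98 ± 0.47, adjusted p = 0.0105). This call was lost without R397W array 1, when the difference was -2.56 (adjusted p = 0.124), in the fit of the A384T and R397W arrays alone (adjusted p = 0.0601), and without all arrays numbered 1 (-2.31, adjusted p = 0.24). The second probe set, 1418349_at, read 2.84, 3.57 and 2.24 in WT, 2.70, 2.00 and 0.95 in A384T, and 0.05 and -0.25 in R397W, with mock between -0.09 and 0.13. Its groups R397W and A384T did not overlap, but the difference of -1.98 ± 0.46 missed the threshold (adjusted p = 0.0653). Without A384T array 3, the lowest of its group, it was -2.45 and passed (adjusted p = 0.0137).

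Trib1 followed Hbegf in the order of groups. Probe set 1424880_at read -0.67, 0.00 and 0.45 in mock and 3.37, 4.09 and 3.83 in WT. It read 3.27, 2.77 and 2.92 in A384T, and -0.71 and -0.13 in R397W. Every A384T array was below every WT array, with a gap of 0.10 between the nearest ones, and R397W array 1 was the lowest of all arrays, just below mock array 1. The difference from mock was 3.84 ± 0.29 in WT (14.3-fold), 3.06 ± 0.29 in A384T (8.34-fold) and -0.35 ± 0.32 in R397W (95% confidence interval -1.07 to 0.37). R397W was 10.6-fold lower than A384T (-3.41 ± 0.32, adjusted p = 0.000691). The second Trib1 probe set, 1424881_at, stayed between -0.25 and 0.11 on all arrays, and R397W minus A384T was 0.05 ± 0.13 (adjusted p = 0.951). The annotation lists the same transcript accession for both, and the part of it that each probe set reads is not known here.

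Drc1, read by 1455279_at, had the smallest standard errors of the 4 plotted probe sets. It read -0.32, 0.00 and 0.30 in mock, 5.16, 4.96 and 4.51 in WT, and 5.23, 4.77 and 4.51 in A384T. WT and A384T arrays ran almost level at each array number. The difference from mock was 4.88 ± 0.23 in WT (29.4-fold) and 4.84 ± 0.23 in A384T (28.7-fold). The R397W arrays read 0.44 and 0.60, both above the highest mock array. The difference of R397W from mock was 0.53 ± 0.25 (1.44-fold, 95% confidence interval -0.04 to 1.09). Of the 11 probe sets, 2 had R397W arrays that did not overlap mock, this one and Tgm2 1455900_x_at, whereas 11.8% of all probe sets did not overlap there. Against A384T, R397W was 19.9-fold lower (-4.32 ± 0.25, adjusted p = 6.38e-05).

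**Figure D2:**
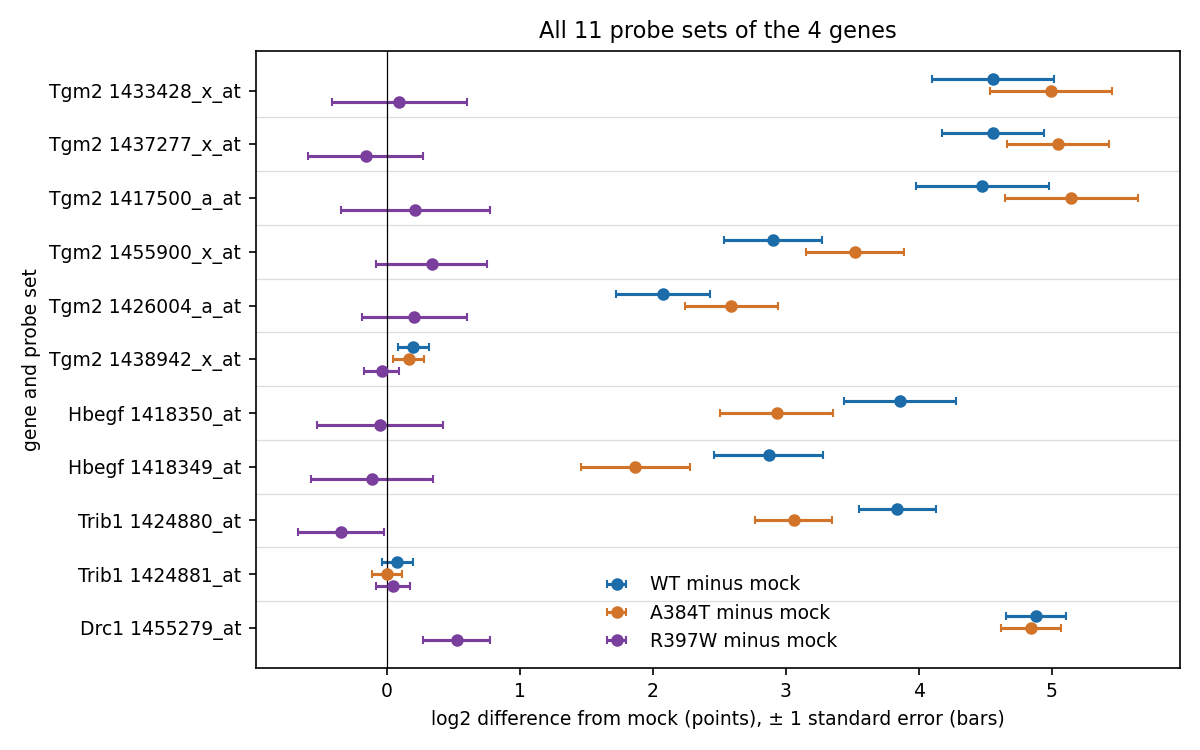
Log2 difference from mock (points) with 1 standard error (bars) of WT, A384T and R397W for all 11 probe sets of the 4 genes. In 9 probe sets WT and A384T lie far above 0 and R397W near it, while Tgm2 1438942_x_at and Trib1 1424881_at stay near 0 in all 3 groups.

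In R397W over A384T, whose means hold no array of the selection, 8 of the 11 probe sets were called and all were lower in R397W. With the spread estimated from the A384T and R397W arrays alone, 5 were called. Over all probe sets, 1.83% were called in either direction and 1.08% were called lower. Of the other 3, Hbegf 1418349_at was lower without passing the test, and Tgm2 1438942_x_at and Trib1 1424881_at were the probe sets that stayed near the mock values throughout. When R397W and A384T were compared within an array number, Tgm2 1437277_x_at differed by -5.99 and -5.26 for numbers 1 and 2, Hbegf 1418350_at by -3.91 and -2.69, Trib1 1424880_at by -3.99 and -2.89, and Drc1 by -4.80 and -4.16. Each gene was thus lower in R397W at both numbers. The difference was the larger one at number 1 for all 4. Leaving out all arrays numbered 1 kept 4 of the 8 calls, those of Tgm2 1433428_x_at and 1437277_x_at, Trib1 1424880_at and Drc1, and left R397W with 1 array, which is then assumed to vary like the other groups. Tgm2 1417500_a_at, 1426004_a_at and 1455900_x_at then differed by -4.10, -2.11 and -2.89 (adjusted p = 0.0939, 0.248 and 0.0731).

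**Figure D3:**
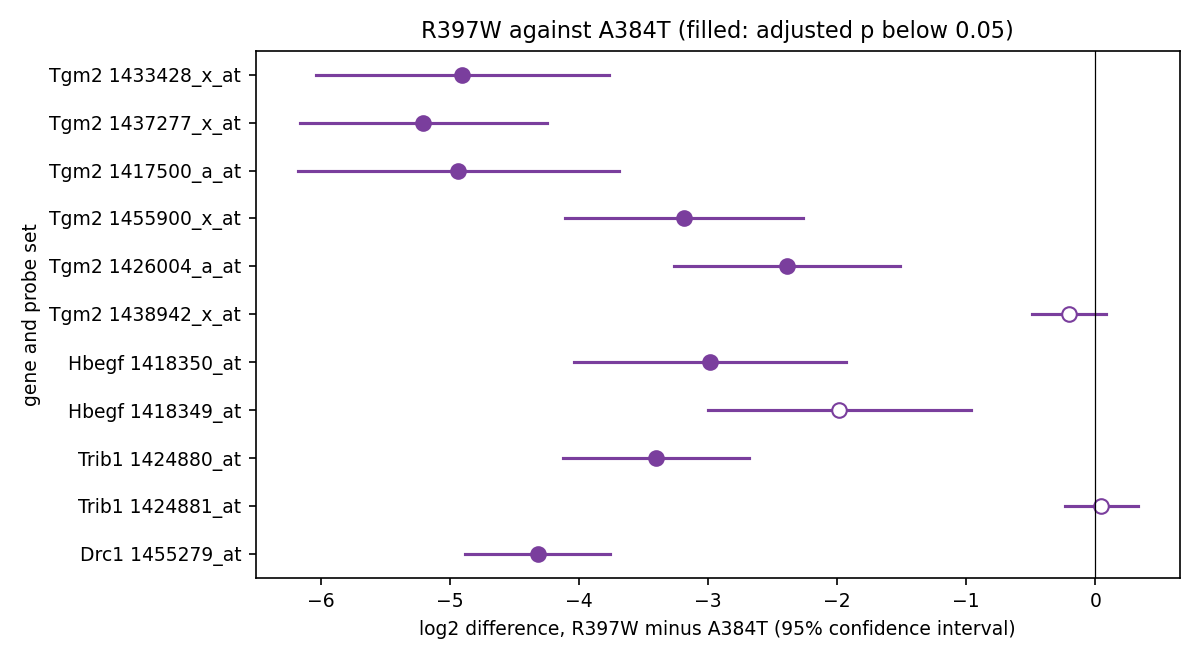
Log2 difference R397W minus A384T with its 95% confidence interval for the 11 probe sets; filled points have an adjusted p below 0.05 (limma). The 8 filled points lie between -5.21 and -2.39, and the 2 probe sets near 0 have intervals that cross 0.

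R397W lay close to mock at these genes, with differences from -0.35 to 0.53 over the 11 probe sets. Trib1 1424880_at (-0.35), Tgm2 1455900_x_at (0.33) and Drc1 (0.53) lay outside the 5th to 95th percentiles of all probe sets, -0.26 to 0.24. Over all probe sets 0% were called in R397W over mock (limma), with 612 at an unadjusted p below 0.05. The intervals remain wide: for Tgm2 1417500_a_at it ran from -1.03 to 1.45, and for Tgm2 1437277_x_at it ran from -1.12 to 0.79. Against WT, where 2.15% of all probe sets were called, R397W minus WT was -4.72 ± 0.43 for Tgm2 1437277_x_at, -3.91 ± 0.47 for Hbegf 1418350_at, -4.19 ± 0.32 for Trib1 1424880_at and -4.35 ± 0.25 for Drc1. These values share the WT arrays of the selection.

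Between A384T and WT the differences of the 4 genes did not share a direction, and none was tested. The arrays of these groups with the same number deviated together from their group means. The correlations over probe sets were 0.719, 0.153 and 0.474 for numbers 1, 2 and 3, so the differences are given within each number. At number 2 this was weak, since A384T array 2 correlated more with WT array 3 (0.284). The differences within numbers and the blocked standard errors below depend on this pairing. At Tgm2 1437277_x_at, A384T was higher by 0.75, 0.31 and 0.40. Over the 5 Tgm2 probe sets that rose, A384T was higher in 15 of 15 such differences, which ranged from 0.12 to 1.17; the probe sets read the same RNA and are not independent. At Hbegf 1418350_at the differences were -0.31, -1.55 and -0.93, and over both Hbegf probe sets A384T was lower in 6 of 6. At Trib1 1424880_at they were -0.10, -1.32 and -0.92, lower in 3 of 3. At Drc1 they were 0.07, -0.19 and 0.01.

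The plain differences of group means, A384T minus WT, were 0.49 ± 0.38 for Tgm2 1437277_x_at, -0.93 ± 0.42 for Hbegf 1418350_at and -0.78 ± 0.29 for Trib1 1424880_at. Their 95% confidence intervals ran from -0.37 to 1.34, from -1.87 to 0.01 and from -1.42 to -0.13. With the array number as a block their standard errors were 0.23, 0.27 and 0.24. For Drc1 the difference was -0.04 ± 0.23, with a 95% confidence interval from -0.54 to 0.47. Of the 11 probe sets, Trib1 1424880_at was the 1 whose A384T and WT arrays did not overlap, against 7.72% of all probe sets; 0.114% of all were called. The genes were selected for high WT values, which favours a lower A384T value. At the arrays numbered 1 the Hbegf and Trib1 differences were the smallest of the 3 and the Tgm2 differences the largest.

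**Figure D4:**
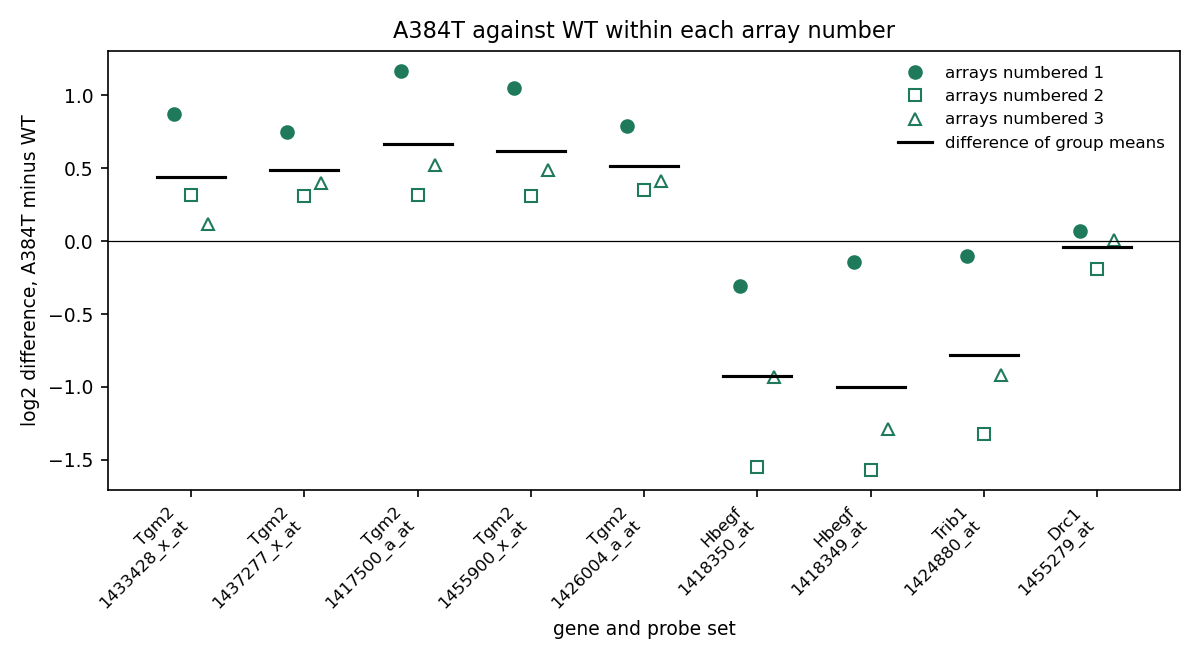
Log2 difference A384T minus WT at each array number (markers) and between group means (bars) for the 9 probe sets that rose by more than 2 in WT over mock. All Tgm2 points lie above 0 and all Hbegf and Trib1 points below it, while Drc1 lies between -0.19 and 0.07.

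The families and pathways of the 4 genes were followed through fixed lists. Of 126 genes in 12 lists, 118 were measured, by 208 probe sets. In WT over mock 7 probe sets rose and 2 fell, where 3.21% of all probe sets were called (unadjusted p below 0.05 at 24 higher and 9 lower). In A384T over mock, where 2.7% of all probe sets were called, 7 rose and 1 fell. In R397W over mock and in A384T over WT 0 were called (limma; at an unadjusted p below 0.05, 4 higher and 2 lower, and 8 higher and 3 lower), and in R397W over A384T, where 1.83% of all were called, 0 rose and 5 fell. WT and mock arrays of the same number deviated together at all 3 numbers, and with the number as a block 22 list probe sets rose and 5 fell in WT over mock, when 8.66% of all probe sets were called.

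Around Tgm2, no other transglutaminase passed the test. Of 9 probe sets for 7 of 8 genes, 0 were called in WT or A384T over mock and 0 in R397W over A384T (limma; 0, 0 and 1 at an unadjusted p below 0.05), and their median WT over mock was -0.06. The farthest from 0 there was Tgm5, an epidermal enzyme, at -0.33 ± 0.16. Of 22 probe sets for retinoic acid synthesis, receptors and targets, 0 were called in these 3 comparisons (limma; 3, 1 and 1 at an unadjusted p below 0.05). Rarg, a retinoic acid receptor, was 0.65 ± 0.18 over mock in WT at 1 of its probe sets (adjusted p = 0.0927). With the number as a block 3 probe sets were called. Rarg was called at that probe set (adjusted p = 0.00328) and not at its other. The receptor Rara was called at 0.64 (adjusted p = 0.0383) and the partner receptor Rxrb at -0.44 (adjusted p = 0.0181).

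Among 25 probe sets of proteins that Tgm2 binds at the cell surface, Sdc4, the heparan sulfate proteoglycan syndecan-4, rose. Its probe set 1448793_a_at read -0.64, 0.39 and 0.00 in mock and 2.14, 3.62 and 2.68 in WT. It read 3.44, 4.03 and 3.53 in A384T, and -0.60 and -0.53 in R397W. Like the 4 genes it was high on all WT and A384T arrays and not on the R397W arrays. Sdc4 rose by 2.90 ± 0.36 in WT over mock (7.46-fold, adjusted p = 0.0015) and by 3.75 ± 0.36 in A384T over mock (13.5-fold, adjusted p = 0.000394), and R397W was 18.8-fold below A384T (-4.23 ± 0.40, adjusted p = 0.000657). The other Sdc4 probe set, 1417654_at, gave 1.83 ± 0.73 in WT over mock and 2.38 ± 0.73 in A384T over mock without passing the test (adjusted p = 0.312 and 0.151), and with the number as a block it was called in WT over mock (adjusted p = 0.0243). Itgb3, the integrin beta 3 subunit, fell by 0.79 ± 0.15 in WT at 1 of its 2 probe sets (adjusted p = 0.0168). Itgb1, the integrin beta 1 subunit, was called with the number as a block at 1 of its probe sets (0.42, adjusted p = 0.0451). Its other probe sets were not called in that fit. The list's median WT over mock was -0.01, as over all probe sets.

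Around Hbegf, no other measured EGF family ligand and no ErbB receptor passed the test. In WT over mock 3.21% of all probe sets were called, so 0 calls in 16 and 11 probe sets is near that share. The ligand list was measured for 9 of 10 genes, as Areg, which encodes amphiregulin, had no probe set among those tested. Of 16 ligand probe sets and 11 of the ErbB receptors, 0 were called in WT over mock (limma; 4 and 1 at an unadjusted p below 0.05), and the medians were -0.03 and 0.02. Tgfa, the ligand TGF-alpha, came closest at 1421943_at, 0.56 ± 0.14 over mock (adjusted p = 0.0552; with the number as a block, adjusted p = 0.0262), while its other 2 probe sets were at -0.01 and -0.15. Errfi1 and Lrig1, which restrain EGF receptor signalling, were the called members of the feedback list. Errfi1, probe set 1416129_at, read 0.00, -0.33 and 0.47 in mock, 1.54, 1.19 and 1.06 in WT, 1.64, 1.10 and 0.89 in A384T, and 0.05 and -0.08 in R397W. It rose by 1.22 ± 0.23 in WT over mock (adjusted p = 0.0189), by 1.16 ± 0.23 in A384T over mock (adjusted p = 0.0266), and was 2.33-fold lower in R397W than in A384T (adjusted p = 0.0464). Its second probe set, 1419816_s_at, gave 0.44 ± 0.20 in WT over mock (adjusted p = 0.393). Lrig1, at 1 of 3 probe sets, rose by 0.52 ± 0.11 in WT over mock (adjusted p = 0.036). Of 18 probe sets for shedding and partners of Hbegf, Adam19, a membrane protease, rose in A384T over mock by 1.16 ± 0.21 at 1 of 2 probe sets (adjusted p = 0.0145). With the number as a block, WT over mock also called Adam9 (1.00, adjusted p = 0.000289) and Adam19 1418402_at (0.78, adjusted p = 0.006). Rhbdf2 (-0.50, adjusted p = 0.0324) of this list was called there too. Of the feedback list, 1 probe set each of Socs4 (0.60, adjusted p = 0.0463) and Socs5 (0.41, adjusted p = 0.0338) was called. The other Socs4 and Socs5 probe sets were not called in that fit.

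Around Trib1, the 5 probe sets of its relatives Trib2 and Trib3 had a median of -0.29 in WT over mock and none was called (limma; 2 lower at an unadjusted p below 0.05). As 3.21% of all probe sets were called in WT over mock, 0 calls in 5 or in 17 probe sets is near that share. Trib3 was at -0.45 ± 0.14 and -0.47 ± 0.18 at its probe sets farthest from 0. With the number as a block the first of these was called (adjusted p = 0.0257). None of the 17 probe sets of Trib1 partners and substrates was called (limma; 1 at an unadjusted p below 0.05). Cebpb, a C/EBP factor, was at 0.89 ± 0.50 and 0.75 ± 0.35 in WT over mock (adjusted p = 0.563 and 0.431). With the number as a block both were called (adjusted p = 0.0198 and 0.0402). So was 1 probe set of Cul4b, a ubiquitin ligase scaffold, at 0.64 (adjusted p = 0.00634), but not its other.

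Around Drc1, no other member of the nexin-dynein regulatory complex passed the test. In WT over mock 3.21% of all probe sets were called, and 8.66% with the number as a block. For 14 probe sets, 0 calls is near these shares. None of 14 probe sets for 10 of its 11 other genes was called in WT over mock (limma; 1 at an unadjusted p below 0.05), nor with the number as a block, and their median was 0.02. The farthest was Gas8, another subunit, at 0.40 ± 0.20. Of 39 motile cilium probe sets, Rsph9, a radial spoke head protein, rose by 1.39 ± 0.19 in WT (adjusted p = 0.0032) and by 1.04 ± 0.19 in A384T over mock (adjusted p = 0.0185), and Mns1, a sperm flagellum protein, fell by 1.05 ± 0.22 and 1.32 ± 0.22. Of 21 probe sets for intraflagellar transport, the trafficking system of all cilia, 3 rose in WT and 3 in A384T over mock, beside 3.21% and 2.7% of all probe sets called in either direction. Both probe sets of Ift80 rose, by 1.14 ± 0.20 and 1.37 ± 0.27 in WT (adjusted p = 0.0115 and 0.0204) and by 2.04 ± 0.20 and 2.09 ± 0.27 in A384T (adjusted p = 0.000418 and 0.00217). At 1427568_a_at Ift80 read 1.04, 1.49 and 1.42 in WT, 2.08, 2.41 and 2.16 in A384T, and 0.19 and -0.04 in R397W, so that every A384T array was above every WT array. Both were lower in R397W than in A384T, by 4.41-fold and 4.36-fold (adjusted p = 0.00103 and 0.00571). Ift57 rose by 1.12 ± 0.23 in WT at 1 of 2 probe sets, and Ift81 by 0.86 ± 0.15 in A384T at 1 of 3. With the number as a block, WT over mock also called Ift74 (0.82, adjusted p = 0.00297). It called Ift81 (0.59, adjusted p = 0.0233) and Ift122 (0.57, adjusted p = 0.0415) at 1 probe set each and not at their others.

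The list calls that held when any 1 of the 11 arrays was left out were those of Sdc4 1448793_a_at in WT and A384T over mock and in R397W over both, of Rsph9 in WT over mock, and of Ift80 in A384T over mock (both probe sets) and in R397W over A384T (1427568_a_at). Ift80 1428329_a_at in R397W over A384T lost its call without R397W array 1 (adjusted p = 0.0736). Each of the other list calls was lost in at least 2 of the 11 fits, with the same direction in all. The number of list probe sets called in WT over mock, 9 in all, fell to 2 without WT array 2, to 3 without mock array 2 and to 5 without WT array 1 or mock array 3. In A384T over mock it fell from 8 to 4 without A384T array 2 and to 5 without mock array 3. In R397W over A384T it fell from 5 to 2 without R397W array 1, and to 3 without R397W array 2, A384T array 2, WT array 2 or WT array 3.

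No gene beside the 4 on the chromosome passed the test. In WT over mock 3.21% of all probe sets were called, and 0 of 29 is near that share. The 2 nearest measured genes on each side of each gene, in the order of the RefSeq gene table (GRCm38.p6, used for names and order), gave 16 neighbours with 29 probe sets. Of these 0 were called in any of the 6 comparisons (limma). In WT over mock they ranged from -0.50 to 0.57, with 6 at an unadjusted p below 0.05 (12.3% of all probe sets reached it), and in A384T over mock from -0.40 to 0.46. In order of coordinate, Tti1 and Rprd1b lie before Tgm2, and Lbp and Snhg17 after it. Cystm1 and Pfdn1 lie before Hbegf, and Slc4a9 and Ankhd1 after it. Washc5 and Nsmce2 lie before Trib1, and 4933412E24Rik and Lratd2 after it. Hadhb and Selenoi lie before Drc1, and Otof and Fam166c after it. The farthest from 0 was Pfdn1, a prefoldin subunit, at 0.57 ± 0.15 (limma, adjusted p = 0.07). With the number as a block 4 neighbour probe sets were called in WT over mock, 1 each of Rprd1b (0.55), Pfdn1 (0.57), Selenoi (0.52) and Hadhb (-0.48). In that fit 8.66% of all probe sets were called, so 4 of 29 does not clearly set the neighbours apart.

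**Figure D5:**
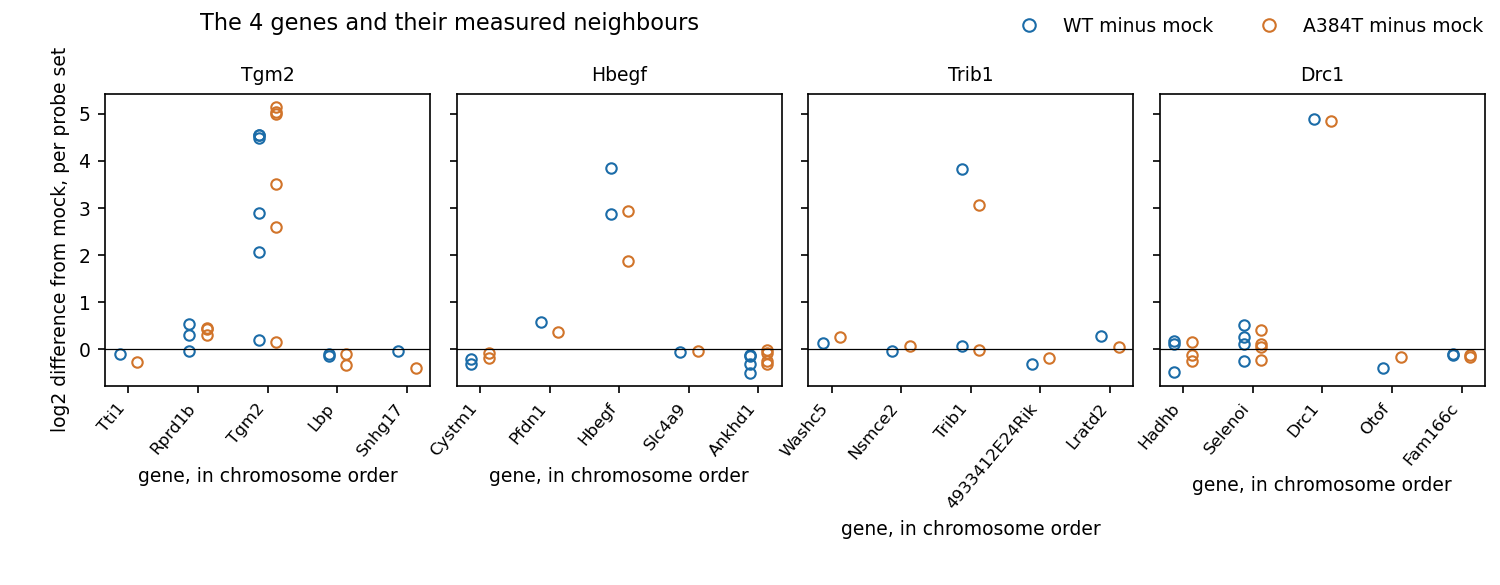
Log2 difference from mock of each probe set (circles) of the 4 genes and of their 2 nearest measured neighbours on each side, for WT and A384T, in chromosome order. No neighbour exceeds 0.57 in WT or 0.46 in A384T, while each of the 4 genes has a probe set at 2.93 or more in both. The 4 genes were selected on their rise in WT over mock, so their greater height there was fixed in advance.

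Across the 11 arrays the 4 genes correlated with one another at 0.94 to 0.98 (Pearson's r, the plotted probe sets). These values mostly restate the difference of the groups, which all 4 share. Deviations from the group means correlated at 0.75 between Tgm2 and Drc1, at 0.67 between Hbegf and Drc1, at 0.48 between Trib1 and Drc1, at 0.57 between Tgm2 and Hbegf and between Hbegf and Trib1, and at -0.01 between Tgm2 and Trib1. Over the 2140 probe sets with a standard deviation of at least 0.5, the genes most like Tgm2 were Lta, the cytokine lymphotoxin alpha (r = 0.994), Enah, an actin regulator (0.994), Gnaq, a G protein subunit (0.993), the receptor Slamf1 (0.990) and the IL-2 receptor alpha chain Il2ra (0.987). Those most like Hbegf were Csrnp1 (0.994), the MYC antagonist Mxd1 (0.990), Rgs1, a regulator of G protein signalling (0.988), the IL-2 receptor beta chain Il2rb (0.988) and Irak2, a kinase of interleukin-1 receptor signalling (0.982). Those most like Trib1 were Tnfrsf9, which encodes the costimulatory receptor 4-1BB (0.986), Csrnp1 (0.985), Il2rb (0.985), Nav1 (0.984) and Izumo1r, the folate receptor 4 of regulatory T cells (0.982). Those most like Drc1 were Gpr83, a receptor known from regulatory T cells (0.993), Enah (0.992), Sdhaf1 (0.991), Il2ra (0.991) and the granzyme Gzmc (0.991).

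Csrnp1 and Il2rb were among the nearest 5 of both Hbegf and Trib1, and Enah and Il2ra of both Tgm2 and Drc1. Csrnp1 was 2.95 over mock in WT and 2.41 in A384T, and Il2rb 2.45 and 1.91, lower in A384T as Hbegf and Trib1 were. Both were chosen by their correlation with Hbegf and Trib1 over these same arrays, which favours that order. Enah was 3.67 and 3.85, and Il2ra 2.11 and 2.17. All of these also follow the group differences: between 190 and 248 of the 2140 probe sets had an r above 0.9 with each of the 4 genes, and between 7 and 19 had one above 0.98.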

How the data were processed

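RNA of 11 samples was hybridised to Affymetrix arrays, 1 array each. The deposited table gives log2 values made with RMA by the authors, per the submitters' processing notes, with no version. RMA subtracts background, equalises the array distributions by quantiles and combines the probes of a probe set. At all 45101 probe sets the 3 mock arrays had a median of exactly 0. No source used here states this centring or the log base, and base 2 was assumed. No filter on signal was possible. Symbols came from the platform annotation: 34945 probe sets with 1 symbol were tested, and 932 with several, 9211 with none and the control probe sets were left out. limma 3.58.1 (R 4.3.3) was fitted to all 11 arrays with 1 mean per group, eBayes and Benjamini-Hochberg adjustment over all tested probe sets of a comparison; called means an adjusted p below 0.05. The number of arrays limits the precision. The script was tested on simulated data. Figures and counts used Python 3.11.15, pandas 2.3.3 and matplotlib 3.10.9.

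The genes, lists and rules were chosen with earlier results of these data known. Named were all probe sets of the 4 genes, all their neighbours as a count, the 5 genes of highest correlation with each, and of each list up to 4 called probe sets per comparison of largest difference, or up to 2 where none was called; the text names part of these. Genes named for a call in the blocked fit were chosen after their values were seen.

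Array numbers come from the sample titles. Of 15 pairs of same-numbered arrays of different groups, the deviations from group means correlated above 0.1 in 14. The values ran from 0.0858 to 0.719, and in other pairs from -0.699 to 0.327. Deviations cancel within a group, which pushes the other pairs down. With 2 R397W arrays those pairs only mirror the same-numbered ones with opposite sign, so the pairs are not independent. All 3 pairs passed for WT with mock and for A384T with WT, so blocked values stand beside those comparisons where they change a call. For A384T with WT the pair of number 2 was weak (0.153), and A384T array 2 correlated more with WT array 3 (0.284). Mock with A384T had 1 pair below, and R397W has 2 pairs only. No 2 arrays were identical.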

Additional observations from a re-analysis of the deposited data

How the results depend on the processing

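Of 194 values of the 11 probe sets in R397W minus A384T under the alternatives, 177 kept direction and side of the threshold. The 9 probe sets that rose with WT stayed lower in R397W under every alternative run. Several alternatives could not change these differences, only their adjusted p. They were leaving out a WT or mock array, fitting the compared groups alone, the trended robust prior and dropping probe sets. Leaving out each array in turn gave Tgm2 -5.43 to -4.50 (1417500_a_at), -5.40 to -4.46 (1433428_x_at), -5.63 to -4.84 (1437277_x_at), -3.58 to -2.80 (1455900_x_at), -2.79 to -2.13 (1426004_a_at) and -0.39 to -0.01 (1438942_x_at), Hbegf -3.40 to -2.56 (1418350_at) and -2.45 to -1.57 (1418349_at), Trib1 -3.70 to -3.11 (1424880_at) and -0.0045 to 0.13 (1424881_at), and Drc1 -4.48 to -4.12. It gave 6 to 9 called member probe sets of 8, and over all probe sets 648 to 1137 calls for WT over mock (1121), 587 to 849 for A384T over mock (942), 17 to 32 for A384T over WT (40), 235 to 777 for R397W over WT (752) and 204 to 612 for R397W over A384T (641). No paired samples are given by the labels; with the array number as a replicate block these counts were 3026, 2923, 206, 2238 and 2275, Hbegf 1418349_at was called (-2.23, adjusted p = 0.00412) and Trib1 1424881_at was at -0.0026. Without the arrays numbered 1 they were 495, 354, 2, 186 and 117, with 4 member probe sets called. Then Tgm2 gave -4.10 (1417500_a_at), -2.11 (1426004_a_at), -2.89 (1455900_x_at) and 0.031 (1438942_x_at), and Hbegf 1418350_at gave -2.31. In fits of the groups compared alone the last 4 counts were 531, 12, 326 and 161, with 5 member probe sets called; the calls of Hbegf 1418350_at (-2.98), Tgm2 1426004_a_at (-2.39) and 1455900_x_at (-3.19) were lost. With a trended robust prior there were 497 calls for WT and 369 for A384T over mock, and 303 and 241 for R397W over WT and A384T. With 1 probe set per gene, the one of largest standard deviation, there were 659, 577, 459 and 413 from fewer features tested, and 4 member probe sets, 1 per gene. Without the 30 percent of probe sets of smallest standard deviation, Hbegf 1418349_at was called (-1.98, adjusted p = 0.028). The cause of the other changes was not tested. Subtracting array medians and averaging the probe sets of a gene changed none of these calls, but averaging lowered Trib1 to -1.68 and Tgm2 to -3.47, since it includes their probe sets near 0. R397W over mock had 0 calls under every alternative. Of 970 values of the other differences, 956 moved by less than 1 standard deviation. This count also includes settings that could not move a difference. Numbers of arrays, 2 or 3 per group, and centred values limit what can be seen.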
